A study of Homo sapiens with 6 samples.

Results

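The zinc-finger gene cluster of chromosome bands 19q13.11 to 19q13.12 was examined in the transcriptome of HAP1 cells. Its members were 35 genes listed by symbol, from ZNF302 at one end to ZNF573 at the other, and all 35 were found among the 57773 genes of the count table. HAP1 cells are adherent, near-haploid human cells that trace back to a chronic myeloid leukaemia. Polyadenylated RNA was sequenced from wild-type HAP1 cells (3 libraries) and from HAP1 cells whose CTCF gene carries the substitutions Y226A and F228A (3 libraries, called mutant here). The edit was made with Cas9 and a repair oligonucleotide carrying an additional silent change, under puromycin selection, and clones were checked by Sanger sequencing. The mutant libraries carry 1 common number in their labels and separate clones are not stated. What the substitutions do and what is peculiar to the clone cannot be told apart, and p-values reflect only the spread of these 6 libraries, which may be technical.

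Most genes of this cluster encode proteins with an array of C2H2 zinc fingers, which read DNA, often behind a KRAB domain. KRAB domains recruit the corepressor TRIM28 (KAP1), which brings the histone methyltransferase SETDB1 and heterochromatin proteins to the bound site. Many such proteins bind transposable elements, and their genes arose by tandem duplication, so that neighbours are often related in sequence. CTCF, the edited protein, is a zinc-finger protein of another kind that binds insulator sites and halts cohesin at the anchors of chromatin loops.

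Start-site sequences of the members with the lowest fitted values, ZNF793, ZNF568 and ZNF850, are shown to let these starts be compared base by base. They are RefSeq promoters on GRCh38.p14, which is not the build of the counts, and each runs from 250 bases before to 50 bases after the annotated start. ZNF793 lies at chr19:37506689-37506988 on the plus strand, ZNF568 at chr19:36916082-36916381 on the plus strand and ZNF850 at chr19:36772758-36773057 on the minus strand. All are written 5′ to 3′ in the direction of the gene, and capitals mark CpG dinucleotides.
ZNF793: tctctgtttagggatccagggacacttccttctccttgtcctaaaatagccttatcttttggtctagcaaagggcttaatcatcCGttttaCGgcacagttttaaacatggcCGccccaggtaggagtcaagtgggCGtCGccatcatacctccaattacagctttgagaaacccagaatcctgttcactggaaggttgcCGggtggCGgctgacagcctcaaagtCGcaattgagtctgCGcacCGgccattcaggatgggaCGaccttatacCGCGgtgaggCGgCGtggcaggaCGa
ZNF568: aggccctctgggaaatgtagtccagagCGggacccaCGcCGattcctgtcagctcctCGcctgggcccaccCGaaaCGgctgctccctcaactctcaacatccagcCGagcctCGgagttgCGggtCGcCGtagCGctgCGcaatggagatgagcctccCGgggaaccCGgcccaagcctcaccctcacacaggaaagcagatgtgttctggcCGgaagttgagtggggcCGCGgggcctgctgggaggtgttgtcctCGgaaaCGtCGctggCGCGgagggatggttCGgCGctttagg
ZNF850: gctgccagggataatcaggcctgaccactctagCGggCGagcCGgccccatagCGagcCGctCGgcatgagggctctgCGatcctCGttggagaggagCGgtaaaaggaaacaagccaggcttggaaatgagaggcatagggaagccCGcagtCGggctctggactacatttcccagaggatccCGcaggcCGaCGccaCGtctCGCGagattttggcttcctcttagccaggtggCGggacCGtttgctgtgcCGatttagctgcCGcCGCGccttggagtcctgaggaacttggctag

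These 3 starts held 16, 25 and 23 CpG dinucleotides and had a GC content of 53.0%, 65.3% and 61.7%. RefSeq entries were found for 31 of the 35 members, with 52 promoters because several genes have alternative starts, and were not matched for ZNF30, ZFP14, ZNF571 and ZNF781. The median over these 52 was 22 CpG dinucleotides (range 9 to 37) and a GC content of 61.3%, against 14 and 58.7% over all 35116 promoters of the same length. The 3 members thus started in sequence within the range of the other members. Motifs were searched on both strands by exact letters. The core motif of CTCF was found in 1 of the 52 member promoters (ZNF607) and in 2.41% of all promoters. The YY1 motif AAGATGGC was found in 3 (5.77%) against 2.89%, and the ETS motif CCGGAAGT in 9 (17.3%) against 4.14%. The 9 promoters belong to 8 members, as HKR1 counts with alternative starts. Among them ZNF568 and ZNF829 start 38 bases apart on opposite strands, so 1 stretch may count for both. Neighbours on opposite strands, ZNF585B and ZNF383, also both held the YY1 motif. The promoters are thus not separate sites, and the shares were not tested. Of the printed starts, only that of ZNF568 held one of these motifs, the ETS motif. A match is a description of the letters and not a measured site.

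Libraries held 7764009 to 9610028 counts in genes, of which 4853 to 6532 fell on the 35 members. Expression is given as CPM (counts scaled to the library's counts in genes that passed the filter on low counts, with TMM factors), with the SD over 3 libraries. CTCF itself stood at 109 ± 3.14 CPM in wild-type cells and 135 ± 4.12 CPM in mutant cells. Of 9 blood markers, 4 had 0 counts in all libraries (PTPRC, SPI1, GATA1 and MPO), among them the defining leukocyte marker PTPRC, and 2 exceeded 1 CPM in either genotype. Their summed level was 37.3 to 43.1 CPM in the wild type and 69.6 to 77.5 CPM in the mutant. Most of it was TAL1, which rose (31.9 ± 2.49 and 67.5 ± 3.57 CPM, edgeR adjusted p = 1.89e-09). RUNX1 fell from 8.90 ± 1.11 to 5.84 ± 0.332 CPM (edgeR adjusted p = 0.00900). The corresponding sums were 59.7 to 64.1 and 63.4 to 72.8 CPM for 6 epithelial markers, and 65.6 to 76.7 and 95.4 to 111 CPM for 7 fibroblast and mesenchymal markers. Within these lists KRT8 (edgeR adjusted p = 4.78e-05) and TWIST1 (0.00331) fell, against the direction of the sums. EPCAM (edgeR adjusted p = 0.00414), ESRP1 (2.00e-06), COL1A1 (0.00962) and PDGFRA (1.92e-07) rose, and KRT18 was not called. CDH1 (11 wild-type counts and 1 mutant count) and PDGFRB (20 and 5 counts) were lower but not tested. KRT19, COL1A2, DCN and LUM were at 0 throughout. Whether these differences take part in the results below was not tested.

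With edgeR, zinc-finger genes of the cluster were either lower in the mutant or not called. The filter on low counts kept 31 of the 35 members, of which 8 fell, 0 rose and 23 were not called at an adjusted p under 0.05 (edgeR quasi-likelihood test, Benjamini-Hochberg over 14835 tested genes). The 8 are 25.8% of the tested members, where 9.26% of all tested genes fell. Among all tested genes 11.9% rose. The count of lower members depended on the analysis. It was 3 with DESeq2 as run here, 4 without wild-type replicate 1 or mutant replicate 3, and 5 without wild-type replicate 3. The authors' deposited DESeq2 results called 5 members lower, for which no share over all genes is given here. The 3 of the DESeq2 run here are 9.38% of the 32 members with an adjusted p. That run called 5.40% of 18693 genes lower, so that the members' share was closer to that of all genes than with edgeR. In the fits without 1 of these libraries, lower calls over all genes also fell, from 1374 to 1042 without wild-type replicate 1. They numbered 1132 without mutant replicate 3 and 1043 without wild-type replicate 3. ZNF585A was called higher in 3 of 12 other analyses, with no filter beyond 1 count, with the replicate block and without wild-type replicate 2. At an unadjusted edgeR p under 0.05, 10 members were lower (32.3%) and 1 was higher (3.23%), where 15.2% of all tested genes were lower and 17.4% higher. The edgeR calls comprised large decreases of ZNF793 and ZNF568, an intermediate one of ZNF850, and smaller ones of ZNF565, ZNF569, ZNF420, ZNF529 and ZNF302. The median log2 change of the 31 tested members was -0.23, against -0.001 over all tested genes. Of the 31, 27 (87.1%) had a value below 0, where 50.3% of all tested genes did. In RNA from whole cultures, fewer cells expressing a gene and less RNA per cell cannot be told apart.

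**Figure D1:**
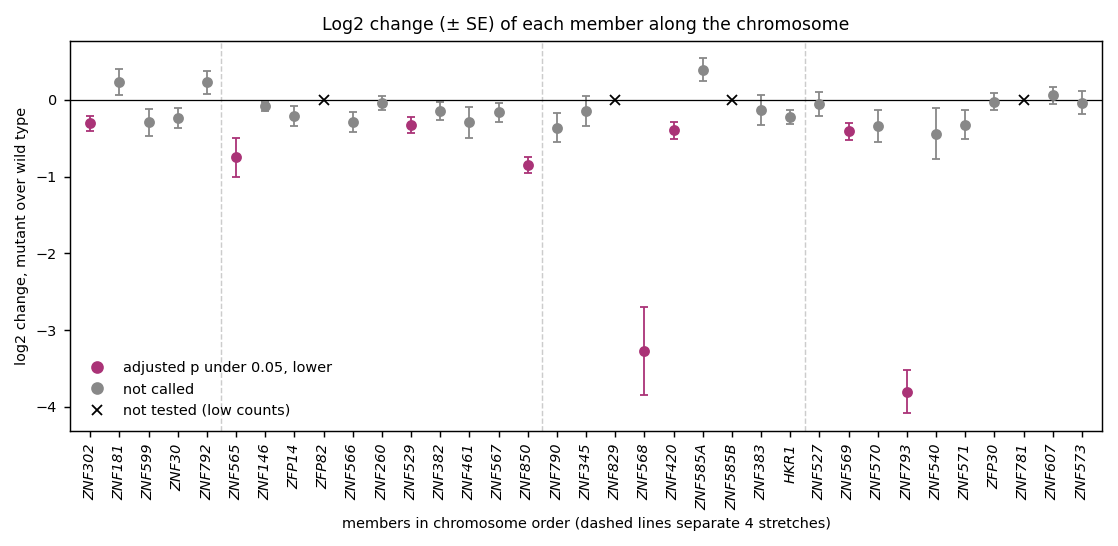
Log2 change of mutant over wild type (vertical axis, error bars SE) for the 35 members in chromosome order (horizontal axis), with called members in purple, uncalled ones in grey and untested ones as crosses at 0. ZNF793 (-3.80) and ZNF568 (-3.27) lie far below the others, ZNF850 (-0.84) and ZNF565 (-0.75) lie next, and no point above 0 was called.

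ZNF793 (ENSG00000188227.8), a KRAB zinc-finger gene, was the gene of the cluster with the lowest fitted change. Its level was 7.17, 7.76 and 8.32 CPM in the wild-type libraries and 0.571, 0.648 and 0.422 CPM in the mutant libraries. The genotypes were widely separated, and the raw counts behind these values were 196 and 14. ZNF793 thus fell 14.0-fold (log2 -3.80, SE 0.277, edgeR adjusted p = 1.04e-09).

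ZNF568 (ENSG00000198453.8) encodes a KRAB zinc-finger protein whose mouse counterpart represses a placental transcript of Igf2. It was low already in the wild type, at 1.35, 1.65 and 1.89 CPM, and stood at 0.343, 0.130 and 0 CPM in the mutant. All mutant libraries were low and 1 of them had no read, so that 41 wild-type counts faced 4 mutant counts. The fitted decrease came to 9.65-fold (log2 -3.27, SE 0.578, edgeR adjusted p = 2.39e-04), and the ratio of summed counts was 10.5 (95% counting interval 3.79 to 40.2). The log2 change was -4.48 without mutant replicate 1, which held 3 of those 4 counts, and -2.67 without mutant replicate 3, and the gene was called in both.

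ZNF850 (ENSG00000267041.1), which encodes a KRAB zinc-finger protein, was expressed at a higher level and decreased less. Wild-type libraries had 27.7, 30.9 and 28.2 CPM and mutant libraries 15.5, 17.4 and 15.5 CPM. Each mutant library lay far below each wild-type library, with a small spread in both genotypes. The decrease was 1.80-fold (log2 -0.84, SE 0.104, edgeR adjusted p = 2.68e-06).

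Smaller decreases were called for 5 further members, and each of these calls was lost in at least 2 of 12 other analyses. ZNF565 (ENSG00000196357.7) had 3.95, 2.67 and 3.40 CPM in the wild type and 2.17, 1.81 and 2.01 CPM in the mutant, 1.68-fold lower (log2 -0.75, SE 0.257, edgeR adjusted p = 0.0418). The call rested on 86 and 52 counts and was lost with DESeq2 (adjusted p = 0.252). ZNF569 (ENSG00000196437.6) had 24.8, 22.6 and 21.2 against 15.4, 17.6 and 18.7 CPM and fell 1.33-fold (edgeR adjusted p = 0.0108). ZNF420 (ENSG00000197050.6), also known as APAK and described as a negative regulator of p53, had 19.7, 18.6 and 17.8 against 14.4, 15.03 and 13.3 CPM and fell 1.32-fold (edgeR adjusted p = 0.0154). The genotypes did not overlap for any of these 3 genes, although for ZNF565 and ZNF569 the nearest libraries were close. ZNF529 and ZNF302, described next, did not overlap either. Without overlap, 13 of the 31 tested members were lower and 3 higher, where 2447 and 2823 of all 14835 tested genes were.

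ZNF529 (ENSG00000186020.8) had 37.5, 39.4 and 39.1 CPM in the wild type and 36.9, 29.5 and 25.8 CPM in the mutant. Mutant replicate 1 thus lay next to the wild type, while the other mutant libraries were lower, and the fitted decrease was 1.26-fold (edgeR adjusted p = 0.0285, and 0.170 without mutant replicate 3). The log2 change without that library was -0.22 in place of -0.33. ZNF302 (ENSG00000089335.16) had 32.4, 35.2 and 34.9 against 29.4, 28.8 and 24.8 CPM and fell 1.24-fold (edgeR adjusted p = 0.0210, and 0.118 without mutant replicate 3). With DESeq2 as run here none of these 5 genes was called, and its 3 lower members were ZNF793, ZNF568 and ZNF850. Omitting wild-type replicate 1 ended the calls of ZNF565, ZNF569, ZNF420 and ZNF529, wild-type replicate 2 those of ZNF529 and ZNF302, and wild-type replicate 3 those of ZNF565, ZNF529 and ZNF302. Omitting mutant replicate 2 ended those of ZNF565 and ZNF529, and mutant replicate 3 those of ZNF565, ZNF420, ZNF529 and ZNF302. The authors' deposited DESeq2 results gave an adjusted p of 0.0333 for ZNF569, 0.0467 for ZNF529, 0.0553 for ZNF302, 0.0587 for ZNF420 and 0.187 for ZNF565. They thus called ZNF569 and ZNF529 besides ZNF793, ZNF568 and ZNF850, 5 members in all.

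**Figure D2:**
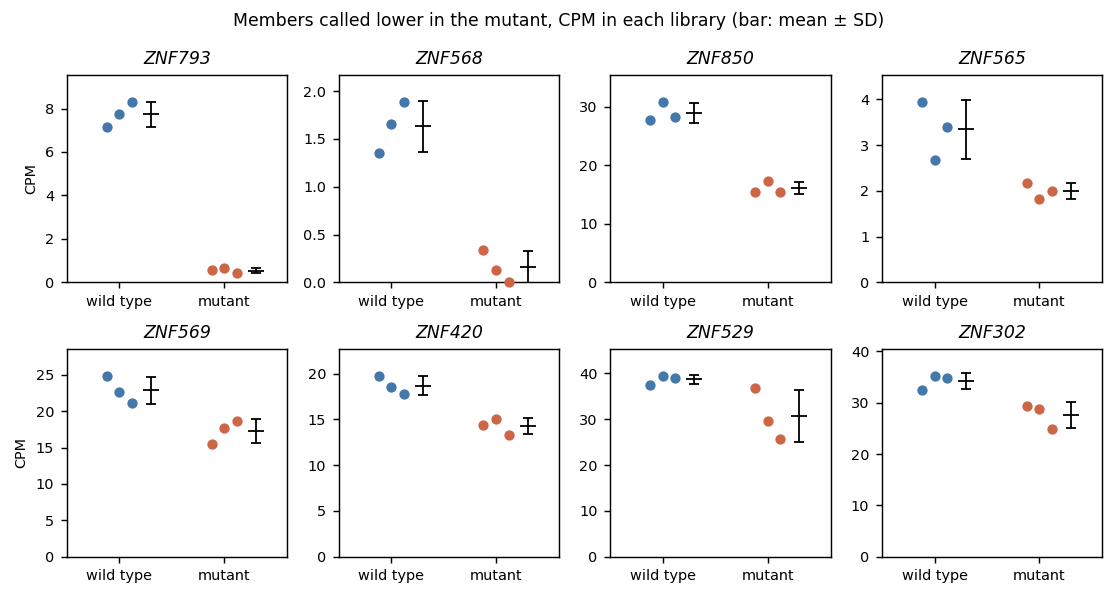
CPM (vertical axes, each from 0) in each library of the 8 members called lower, with 3 points a genotype and the mean ± SD beside them. ZNF793 and ZNF568 are near 0 in the mutant, ZNF850 lies at 16.1 against 28.95 CPM on average, and the gap is narrow for ZNF529 and ZNF302.

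Levels between members were compared as CPM per kilobase of exon, with the length of all exons in GENCODE v29. ZNF146, also called OZF, which consists of zinc fingers without a KRAB domain, was far above every other member at 57.4 ± 2.09 in wild-type cells and 54.1 ± 3.10 in mutant cells. ZNF260, another member without a KRAB domain, was next with 7.52 ± 0.772, followed by ZNF302 with 6.79 ± 0.307, and these neighbours in the order did not differ beyond their SD. The order below ZNF146 depended on the length used. Per kilobase of the longest transcript, HKR1 was at 9.58 in place of 4.62 and came next after ZNF146, ahead of ZNF302 (8.90) and ZNF260 (7.90). From ZNF30 (4.93 ± 0.416) to ZFP30 (4.22 ± 0.290), 7 members followed whose wild-type levels lay within the SD of their neighbours. ZNF850 was at 3.69 ± 0.218 in wild-type cells and 2.06 ± 0.135 in mutant cells. The other genes with large decreases had low levels at the outset, ZNF793 with 0.645 ± 0.0478 and ZNF568 with 0.173 ± 0.0287. In the order by all exons ZNF793 stood at place 28 of 35 in the wild type and at place 31 in the mutant, and ZNF850 at 11 and 13.

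**Figure D3:**
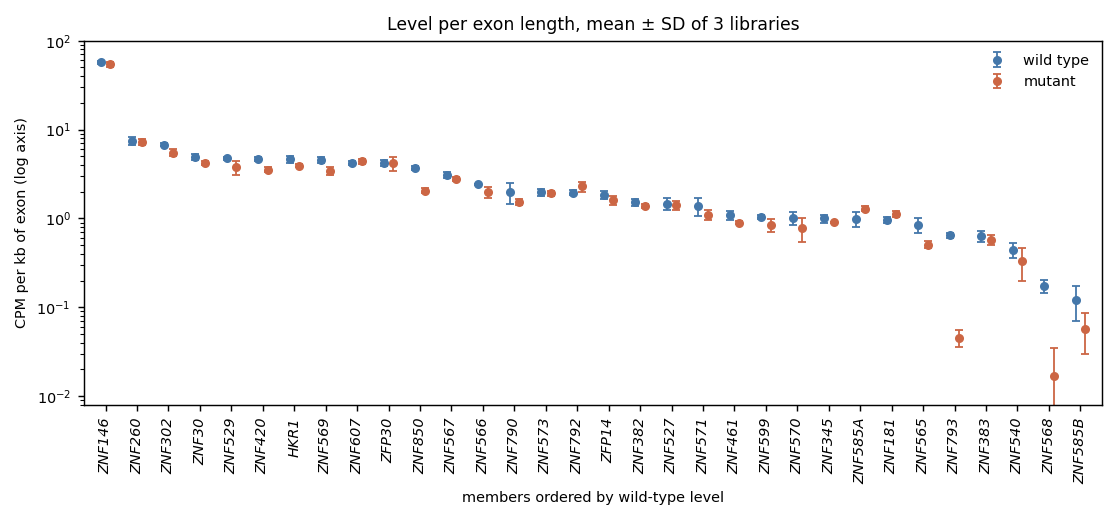
Level in CPM per kilobase of exon (log axis, mean ± SD of 3 libraries) of the 32 members with more than 3 counts in all, ordered by wild-type level, in blue for the wild type and orange for the mutant. ZNF146 (57.4) stands above all others, and the genotypes part most at ZNF793 (0.645 and 0.0456) and ZNF568 (0.173 and 0.0167), whose mutant SD exceeds its mean.

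Because it is so abundant, ZNF146 alone made up 34.4 ± 0.498% of the summed CPM of the members in wild-type cells and 36.7 ± 1.27% in mutant cells. Its CPM was 237, 247 and 230 in the wild type and 209, 232 and 231 in the mutant (log2 -0.09, SE 0.0546, edgeR adjusted p = 0.292). The genotypes overlapped and the gene was not called. The sum over all members was 691 ± 22.3 CPM in wild-type cells and 610.3 ± 18.6 CPM in mutant cells. Without ZNF146 it was 453 ± 14.7 and 386 ± 9.52 CPM. With the 8 lower members also left out it was 297 ± 12.3 and 277 ± 9.19 CPM.

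The 23 tested members that were not called had log2 changes between -0.44 (ZNF540) and 0.39 (ZNF585A), with a median of -0.15. Of these, 19 (82.6%) were below 0, where 50.3% of all tested genes, called or not, were. ZNF585A had the highest value of all members, with 8.41, 12.5 and 10.96 CPM in the wild type and 14.5, 14.1 and 12.9 CPM in the mutant. Its mutant libraries were above each wild-type library, the closest by a narrow margin, and the edgeR adjusted p was 0.0588. It was called higher with the replicate number as a block (adjusted p = 0.0384), in the fit without wild-type replicate 2 (0.0217) and with no filter beyond 1 count (0.0440). ZNF566 (log2 -0.29, SE 0.128, edgeR adjusted p = 0.117) and HKR1, now named ZNF875 (-0.23, SE 0.0916, 0.0840), were under an unadjusted p of 0.05 but were not called. ZFP30 (32.5 ± 2.23 and 32.1 ± 5.61 CPM), ZNF607 (20.1 ± 1.11 and 20.9 ± 1.45 CPM) and ZNF573 (9.22 ± 0.838 and 8.96 ± 0.647 CPM), at the distal end, were at nearly equal means. ZNF382, a KRAB zinc-finger gene described as a tumour suppressor, had 15.6, 18.3 and 18.02 CPM in wild-type and 15.8, 16.3 and 14.7 CPM in mutant libraries (edgeR adjusted p = 0.416).

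The lower calls were spread along the cluster. In the stretch from ZNF302 to ZNF792 (band 19q13.11), 1 of 5 tested members fell and 3 had a value below 0 (median log2 change -0.23). From ZNF565 to ZNF850, 3 of 10 fell and all 10 had a value below 0 (median -0.25). From ZNF790 to HKR1, 2 of 7 fell and 6 had a value below 0 (median -0.23). From ZNF527 to ZNF573, 2 of 9 fell and 8 had a value below 0 (median -0.32). In order, the shares that fell were 20%, 30%, 28.6% and 22.2%, where 9.26% of all tested genes fell. Values below 0 were found for 50.3% of all tested genes. Each stretch holds few genes, and none was tested against these shares. ZNF793 lies between ZNF570 (6.34 ± 1.02 and 4.91 ± 1.49 CPM, edgeR adjusted p = 0.286) and ZNF540 (1.91 ± 0.355 and 1.42 ± 0.569 CPM, 0.394), and neither was called. ZNF568 lies between ZNF829, described below, and ZNF420, which fell 1.32-fold.

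The other 4 members did not pass the filter on low counts. ZFP82, ZNF781 and ZNF829 had 1 count each over all 6 libraries, ZFP82 and ZNF781 in mutant replicate 1 and ZNF829 in wild-type replicate 2. Their transcripts were not detectable at this depth in either genotype, where 3 counts in a library correspond to 0.312 to 0.386 CPM. The promoter of ZFP82 held 37 CpG dinucleotides, the highest number among the member promoters. ZNF585B had 13, 5 and 6 counts in the wild type and 2, 5 and 4 in the mutant, which overlapped, and was not tested.

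Several members start next to a gene on the opposite strand, and some of these pairs are given side by side, with antisense transcripts. ZNF850 and the noncoding gene CTD-2162K18.4 have starts within 1000 bases of each other, and both fell. CTD-2162K18.4 had 2.80, 2.29 and 2.27 CPM in the wild type and 0.343, 0.648 and 0.528 CPM in the mutant, a 4.82-fold decrease (log2 -2.27, SE 0.369, edgeR adjusted p = 9.40e-05). ZNF568 shares its start region with ZNF829, which had 1 count in wild-type cells and 0 in mutant cells. ZNF529, which fell, is paired with ZNF382, which was not called. In the pairs of ZNF790 with ZNF345 and of ZNF567 with the noncoding gene LINC01534, neither gene was called. In further pairs the members ZNF30, ZNF566, ZNF260, ZNF383 and ZNF573 were not called, and ZNF585B, the partner of ZNF383, was not tested. The antisense transcript ZNF793-AS1 had 3 counts in wild-type cells and 0 in mutant cells, too few to compare. ZNF571-AS1 had 11 and 0 counts, the 11 being 1, 4 and 6 in the wild-type libraries, and was not tested. Set against a floor of 3 counts over the mutant group, it was 3.74-fold lower. That value takes the 11 counts as exact and is not a lower bound. ZNF529-AS1, the only antisense transcript of a member that was tested, had 2.17 ± 0.463 and 1.51 ± 0.659 CPM (edgeR adjusted p = 0.303).

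Between the first and the last member the annotation also places genes of other families. Of 29 tested protein-coding ones, 4 fell (13.8%) and 1 rose (3.45%), where 9.26% and 11.9% of all tested genes did. The median log2 change of the 29 was 0.004. The lower ones were FXYD7, FXYD5, TMEM147 and APLP1, and the higher one was DMKN. They are named because they were called, that is, after their values were seen. Of 9 tested noncoding ones, 3 fell (33.3%, CTD-2162K18.4, TMEM147-AS1 and LINC00665) and 0 rose. All 9 had a value below 0, where 50.3% of all tested genes did. Their median log2 change of -0.33 was lower than that of the members. LINC00665, a long noncoding RNA gene between ZNF146 and ZFP14, had 30, 24 and 23 counts in the wild-type libraries and 1, 0 and 1 in the mutant libraries. The ratio of its summed counts was 39.3 (95% counting interval 10.5 to 330). The member genes on either side of it, ZNF146 and ZFP14 (14.5 ± 1.49 and 12.6 ± 1.45 CPM), were not called. The members' median of -0.23 and those of the other coding and noncoding genes of the interval were not tested against each other.

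**Figure D4:**
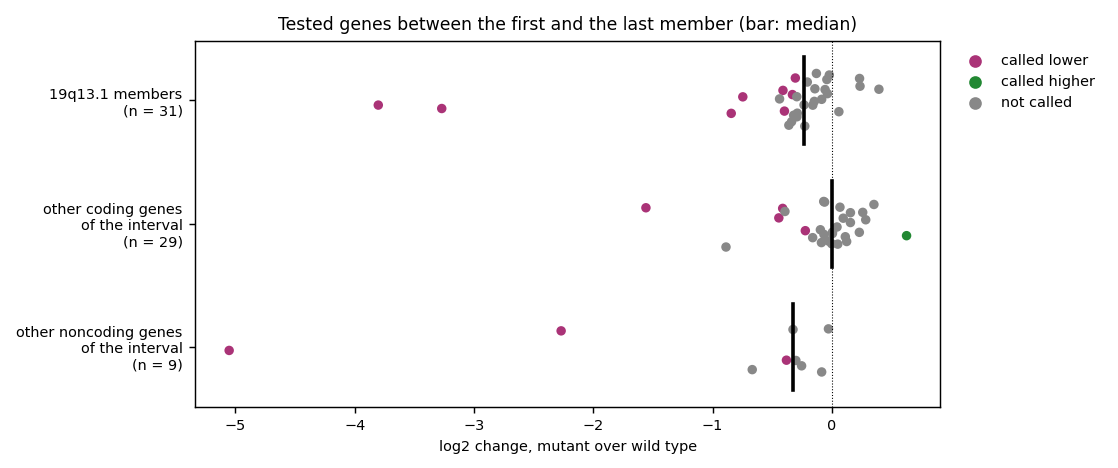
Log2 change of mutant over wild type (horizontal axis) of the tested genes located from the first to the last member, in rows for the 31 members, 29 other coding genes and 9 other noncoding genes, with a bar at the median and colour for the call. The median is -0.23 for the members, 0.004 for the other coding genes and -0.33 for the other noncoding genes. Single genes of each row lie far to the left.

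Other zinc-finger genes give the setting. Among 174 tested protein-coding genes of chromosome 19 with ZNF or ZFP symbols outside the cluster, 41 fell (23.6%) and 4 rose, with a median log2 change of -0.07. On the other chromosomes, 15 such genes fell (6.64% of those tested), 20 rose and 191 were not called, with a median of 0.01. The share of lower members in the 19q13.1 cluster, 25.8%, was thus close to that of the other zinc-finger genes of chromosome 19. Values below 0 were found for 58.6% of those genes and for 87.1% of the tested members. These lists were not tested against each other.

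The machinery through which KRAB zinc-finger proteins act was listed for comparison. Of 22 listed genes 21 were matched and 20 tested, of which 3 fell, 2 rose and 15 were not called (median log2 change 0.03). These shares, 15% lower and 10% higher, were near the 9.26% and 11.9% of all tested genes and are no result about the machinery. TRIM28, the KRAB corepressor, was at 622 ± 17.9 and 615 ± 15.7 CPM, and the methyltransferase gene SETDB1 at 70.8 ± 5.21 and 68.4 ± 3.004 CPM, and neither was called. ZNF274, a zinc-finger protein that recruits SETDB1 to the 3′ ends of zinc-finger genes, fell from 29.5 ± 3.80 to 15.6 ± 0.865 CPM (1.89-fold, edgeR adjusted p = 2.55e-06). The SETDB1 partner ATF7IP fell 1.22-fold (edgeR adjusted p = 6.22e-04) and the remodeller SMARCAD1 1.17-fold (0.0260). The heterochromatin protein gene CBX5 rose 1.26-fold (edgeR adjusted p = 9.76e-05) and CHD3, of the NuRD complex, 1.32-fold (4.29e-06). EHMT2 was listed at 0 in all libraries. The counts cannot tell whether its RNA was absent or its reads were left out, for example as multiply aligned.

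Related sequence and overlapping exons limit some of these counts. As a measure, stretches of 50 bases in the members' GENCODE v29 transcripts were compared with those of all other genes. ZNF585B shared 24.9% of its stretches with other genes and ZNF585A 17.3%, in large part with each other, so reads of this pair can be lost or split and their values are uncertain. ZNF607 shared 12.6%, ZNF181 10.0% and ZNF302 8.50%. For ZNF793, ZNF568 and ZNF850 the shares were 2.42%, 0.503% and 3.53%, and for ZNF420 and ZNF569 there were none. Exons of ZNF565 overlapped those of the far more abundant ZNF146 on the opposite strand, over 11.3% of their length, and exons of ZNF793 overlapped antisense genes over 8.20%. The libraries are strand-specific, but the strand setting of the counting is not given in the sources used here, so for such stretches the strands may not be told apart. Multiply aligned reads made up 12.13 to 12.55% of the wild-type and 11.5% of the mutant reads, and whether this bears on the members was not tested.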

How the data were processed

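Raw counts per gene and library were deposited by the authors without normalization. TopHat2 2.1.1, HTSeq and DESeq2 with genome build hg19 are named in the submitters' processing notes, while what each tool did and the strand setting were not given in the sources used here. A further 5 closing totals of reads without a gene (including 9.05 to 10.5% without a feature) were set aside. All 6 count columns were used. In the authors' deposited table of the mutant over wild type, per the file headers from DESeq2, the base mean is a signal of normalized counts, and a log2 fold change, a Wald score, p-values and adjusted p-values are given. From it only adjusted p-values and the calls they give are printed.

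Differential expression was tested with edgeR 4.0.16 under R 4.3.3 (filterByExpr by group, TMM factors, robust quasi-likelihood F test, genotype as the only term, prior count 0.125), and p-values were adjusted over all tested genes by the Benjamini-Hochberg method. The SE was taken from the test statistic. The script was tested on simulated data. Alternatives were other scalings, no filter, DESeq2 1.42.0, limma-voom (limma 3.58.1), a replicate block and leaving out each library. Members and lists were chosen with earlier results of these data known. Named genes were all 35 members, with those called at 0.05 given in every library. GENCODE v29 on GRCh38 supplied gene order, biotype, exon lengths and transcripts. RefSeq on GRCh38.p14 supplied promoters. The files were not converted between builds. A protein table was not used here, so the planned protein features are not given. At 7764009 to 9610028 gene counts per library, counting intervals (Clopper-Pearson, 95%) and floors of 3 counts cover counting error only.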

Additional observations from a re-analysis of the deposited data

How the results depend on the processing

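In all 12 alternatives ZNF793, ZNF568 and ZNF850 were called lower, with log2 changes of -3.93 to -3.64, -4.48 to -2.67 and -0.90 to -0.80. The count of lower members was 8 and became 3 with DESeq2 as run here. It was 5 in the authors' deposited DESeq2 results. It was 7 with limma-voom and 7 with no filter beyond 1 count. Leaving out 1 library gave 4 to 8 lower members. Over all tested genes these fits called 1042 to 1640 lower, against 1374 in the main fit. The count of higher members was 0 and became 1, ZNF585A, with no filter beyond 1 count and with the replicate block, and 0 to 1 when 1 library was left out. The cause of these changes was not tested. No call of ZNF585A, ZNF566, HKR1 or ZNF146 changed direction in any alternative. The median of the tested members ranged from -0.26 to -0.20 over the 12. The number of tested members below 0, counted after the data were seen, ranged from 23 (without mutant replicate 1) to 28 of 31. In the main fit 50.3% of all tested genes were below 0. For the replicate block, the pairing of the numbers was checked by correlating deviations from the group means. Same-numbered libraries gave 0.0763, 0.0898 and -0.116, and not every library correlated best with its own number, so the numbers were not taken as pairs. With the block 8 members were lower. With the longest transcript in place of all exons, the level per length moved by over 1 SD for 26 members, as a shorter length raises it. Depth limits ZFP82, ZNF781, ZNF829, ZNF585B and ZNF568, whose counts are few.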
